A study of Mus musculus with 28 samples.

Results

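Collagen genes were followed through the reprogramming of mouse fibroblasts into induced pluripotent stem (iPS) cells. Members were all measured genes with a symbol of the form Col, a number, a and a number, which gave 32 of the 11807 genes on the main set of 24 microarrays. A second set of 4 arrays, on another design, measured 36 collagen genes among 12394. The cells were embryonic fibroblasts (MEFs, taken at E13.5) of strain C57BL6/129 with a doxycycline-inducible OKSM cassette, which encodes the 4 reprogramming factors, and the Rosa26-M2rtTA activator. All groups shared these alleles, in 1 or 2 copies that the labels do not assign to arrays, and reprogramming ran with doxycycline in ESC medium with serum and LIF. MEFs (day 0) had 2 arrays, named M2 and M3. Cells of days 3 and 6 were sorted by the fibroblast surface protein Thy1 and the early pluripotency antigen SSEA1 into Thy1+, Thy1- (negative for both) and SSEA1+ fractions, each with an M2 and an M3 array. The same fractions of days 9 and 12 had 1 M2 array each, as did day 12 SSEA1+ cells that were also GFP+ (the labels do not name the gene behind the reporter). Established iPS lines had 3 arrays (1-3, 1-5 and 1-6) and were preplated to deplete feeder cells, which are themselves fibroblasts. In the second set, day 6 SSEA1+ cells were split by the epithelial adhesion protein EpCAM, with 2 arrays per fraction and no strain in the labels. The labels leave unsaid whether arrays of a group are separate animals or cultures. Each p-value therefore measures only the spread of arrays around the fitted means, which may be technical.

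Collagens are secreted or membrane proteins in which 3 chains wind into a triple helix, and each chain has its own gene. Fibrillar collagens, such as types I, III and V, form the tensile fibers of connective tissue and are a main product of fibroblasts. Type VI builds beaded filaments around cells, type VII anchors epithelia to the tissue beneath, and type IV forms the sheet-like network of basement membranes. Fibril-associated (FACIT) collagens decorate the fibers, multiplexins (types XV and XVIII) lie in or near basement membranes, and transmembrane collagens stay in the plasma membrane. Reprogramming turns a mesenchymal, matrix-producing cell into an epithelial-like one.

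Signals are on the log2 scale, and a gene with several probe sets is given by the brightest on average. Levels were compared between arrays for a gene, never between genes or between the 2 sets of arrays. Of the 32 genes, 22 had a mean signal above 5.09, the limit below which the dimmest 25% of all genes lay, and 10 had a mean below it. A gene was called at an adjusted p under 0.05 in limma (Benjamini-Hochberg, adjusted across every gene of the table) with a difference of at least 2-fold. As a check of the labels, 13 measured fibroblast markers that are not collagens had a summed log2 signal of 148.0 and 148.3 in MEFs, 89.6 in GFP+ cells and 88.7 to 97.1 in iPS cells. Among iPS arrays, 1-3 had the highest mean of these markers, at 7.47 against 7.02 (1-5) and 6.82 (1-6). For Gapdh, the gap between 3' and 5' control probe sets, which widens as RNA degrades, was 1.78 (log2) on the day 6 Thy1+ M2 array and 0.934 on its M3 partner. It was 0.867 and 0.940 in MEFs and 0.579 to 0.664 in iPS cells, while the Actb gap went the other way (0.808 and 0.839 against 1.041 to 1.182). The 18S probe signal was 9.26 and 9.04 in MEFs, 7.20 to 7.71 on day 3 and 7.69 to 7.88 in iPS cells. It was 7.22 to 7.81 on day 9 and 8.34 to 9.25 on day 12. The part of these gaps and signals in the results was not tested. In bulk RNA, fewer cells of a type and less RNA per cell cannot be told apart. The MEF and iPS titles name KH2, an embryonic stem cell system in which inducible transgenes are placed beside Col1a1. The labels do not give the site of this cassette, and its effect on the Col1a1 signal was not tested.

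Promoters are shown for members whose signals turned out to move in different ways: Col3a1 and Col6a3, which fell, Col15a1, which first rose and then fell, and Col18a1, which fell and then returned. RefSeq sequences on GRCm38.p6 were matched by symbol for 25 of the 32 genes and 28 annotated starts. The 7 genes Col1a1, Col2a1, Col4a3, Col5a2, Col9a3, Col14a1 and Col26a1 had no match. Each line gives the 250 bases before the annotated start, 5' to 3' on the gene's strand, with matches to CCAAT, to the GC box GGGCGG and to the TATA box TATAAA, on either strand, in capitals.
Col3a1 (chr1:45311288-45311537, plus strand): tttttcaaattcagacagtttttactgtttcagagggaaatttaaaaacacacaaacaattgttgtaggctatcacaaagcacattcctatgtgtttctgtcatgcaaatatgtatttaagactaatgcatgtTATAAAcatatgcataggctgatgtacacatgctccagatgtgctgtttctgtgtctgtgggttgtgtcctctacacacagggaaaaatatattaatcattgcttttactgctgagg
Col6a3 (chr1:90843972-90844221, minus strand): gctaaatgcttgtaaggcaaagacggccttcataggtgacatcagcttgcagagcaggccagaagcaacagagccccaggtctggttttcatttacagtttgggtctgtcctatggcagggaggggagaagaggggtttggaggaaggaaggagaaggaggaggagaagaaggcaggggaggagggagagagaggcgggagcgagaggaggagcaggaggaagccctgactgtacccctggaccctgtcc
Col15a1 (chr4:47207762-47208011, plus strand): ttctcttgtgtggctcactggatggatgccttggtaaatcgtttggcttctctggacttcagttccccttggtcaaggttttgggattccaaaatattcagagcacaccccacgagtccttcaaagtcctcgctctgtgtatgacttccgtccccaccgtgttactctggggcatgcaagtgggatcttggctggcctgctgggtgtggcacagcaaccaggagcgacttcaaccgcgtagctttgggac
Col18a1, upstream start (chr10:77166531-77166780, minus strand): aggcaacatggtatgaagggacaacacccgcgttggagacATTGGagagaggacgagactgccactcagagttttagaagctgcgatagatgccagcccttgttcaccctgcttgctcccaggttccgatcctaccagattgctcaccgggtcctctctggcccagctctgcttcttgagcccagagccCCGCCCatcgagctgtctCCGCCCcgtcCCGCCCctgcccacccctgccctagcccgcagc
Col18a1, inner start (chr10:77113706-77113955, minus strand): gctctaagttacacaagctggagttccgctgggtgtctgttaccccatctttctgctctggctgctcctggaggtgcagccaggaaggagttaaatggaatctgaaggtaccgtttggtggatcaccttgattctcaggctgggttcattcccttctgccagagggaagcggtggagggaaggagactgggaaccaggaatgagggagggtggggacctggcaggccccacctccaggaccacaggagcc
These windows differed in the letters searched. Col3a1 held a TATA match, Col6a3 and Col15a1 held none of the motifs, and Col18a1 held 1 CCAAT and 3 GC box matches at its upstream start and none at its inner start. Over 250 bases, CCAAT was present at 39.3% of the 28 collagen starts and 33.8% of all 32851 starts, the GC box at 53.6% and 32.7%, and the TATA box at 17.9% and 12.4%. A match is a description of letters only. Several measured members are neighbours in the annotation: Col3a1 with Col5a2, Col6a1 with Col6a2, Col4a1 with Col4a2, Col4a5 with Col4a6, Col4a3 with Col4a4 and Col9a1 with Col19a1. Col4a1 and Col4a2 lie head to head, and their annotated starts overlap by 22 bases (chr8:11312805-11312826). The starts of Col4a5 and Col4a6 lie 1343 bases apart on chromosome X.

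The end points were compared first. In iPS cells 18 of 32 collagen genes were lower than in MEFs, where 15.3% of all genes were called lower, and 1 was higher, where 15.4% were. The median log2 difference was -2.58 over the collagen genes and 0.01 over all genes. Every measured member of the type VI group was called, and the losses spanned all classes but the transmembrane collagens and Col26a1.

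**Figure D1:**
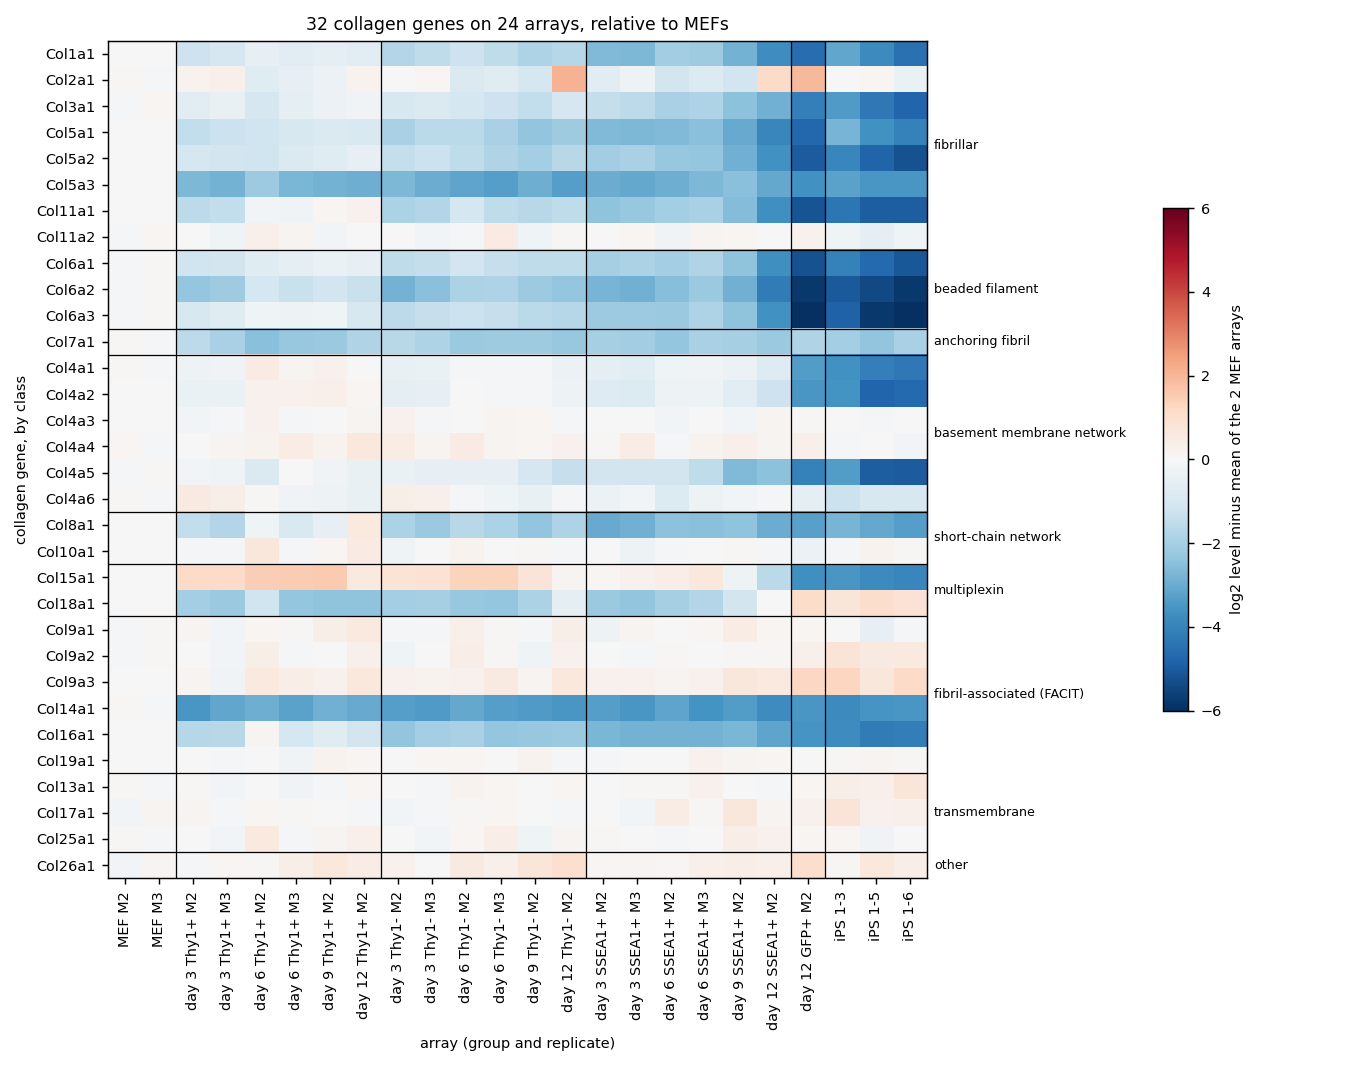
Log2 signal of 32 collagen genes (rows, by class) on each of 24 arrays (columns, by fraction and day) minus the mean of the 2 MEF arrays, on a color scale from -6 (blue) to 6 (red). Col1a1, Col5a1 and the type VI genes are blue in SSEA1+ cells from day 3, deepest of these days on day 12, and blue in GFP+ and iPS cells, Col4a1 and Col4a2 are deep blue in GFP+ and iPS cells and pale in the other fractions, Col14a1 and Col5a3 are blue in every fraction from day 3, and Col15a1 and Col18a1 show opposite patterns.

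Type VI collagen is a heterotrimer of the chains below, of which Col6a3 and Col6a2 had the deepest losses among the collagen genes. Col6a3 had signals of 11.28 and 11.38 in MEFs and of 6.48, 5.54 and 5.09 in iPS lines 1-3, 1-5 and 1-6, the order used for iPS values throughout. The groups were far apart, and the log2 difference of -5.62 (SE 0.28, adjusted p = 4.92e-10, limma) is a 49.3-fold lower signal. Col6a2 was lower by -5.41 (SE 0.19) and Col6a1 by -4.60 (SE 0.22) on the same scale.

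Among 8 fibrillar genes, 6 were lower. Col1a1, the main chain of type I collagen, stood at 13.18 and 13.21 in MEFs and at 10.09, 9.37 and 8.71 in iPS cells, a log2 difference of -3.80 (SE 0.27, adjusted p = 1.83e-08, limma). Col3a1, the single chain of type III collagen, stood at 12.85 and 13.08 against 9.57, 8.68 and 8.22, a difference of -4.14 (SE 0.28). Chains of types V and XI, which nucleate fibers and limit their width, fell as well. Their differences were -4.64 for Col5a2, -3.48 for Col5a1, -3.39 for Col5a3 and -4.75 for Col11a1. The second probe set of Col5a3 was dim and did not follow the one used (r = 0.13 over the 24 arrays), so the Col5a3 values rest on 1 probe set. Not called were Col2a1 of cartilage, at -0.12 (SE 0.17), and Col11a2, at -0.34 (SE 0.18).

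Of 6 type IV genes 4 were lower. Col4a1 and Col4a2, which form the common basement membrane trimer, had differences of -4.02 (SE 0.16) and -4.34 (SE 0.24). Col4a1 stood at 12.27 and 12.16 in MEFs and at 8.56, 8.13 and 7.91 in iPS cells, with no overlap. Col4a5 fell from 10.46 and 10.59 to 7.17, 5.58 and 5.55, a difference of -4.43 (SE 0.38). Its neighbour Col4a6 had a low signal, 5.54 and 5.37 in MEFs, and a difference of -1.06 (SE 0.17). Col4a3 and Col4a4, the kidney chains, were dim on every array, with ranges of 3.20 to 3.63 and 3.45 to 4.21.

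The other classes had fewer measured members. The fibril-associated Col16a1 and Col14a1 were lower by -4.04 and -3.62, the multiplexin Col15a1 by -3.74, the short-chain vascular collagen Col8a1 by -3.05 and the anchoring-fibril gene Col7a1 by -2.11. Col9a3, a chain of the fibril-associated type IX collagen of cartilage, was the 1 gene called higher. It rose from 4.98 and 4.89 to 6.23, 5.62 and 6.10, a difference of 1.04 (SE 0.17, adjusted p = 0.000107, limma), close to the 2-fold limit. It was not called without iPS array 1-3 (0.92), iPS array 1-6 (0.99) or the MEF M3 array, nor was Col4a6 without iPS array 1-3 (-0.95) or the MEF M2 array (-0.97). Col18a1 ended at 9.41, 9.73 and 9.55 in iPS cells against 8.72 and 8.63 in MEFs, a difference of 0.89 (SE 0.23) that missed the 2-fold limit.

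The iPS arrays were not alike. Of the 18 genes lower in iPS cells, 15 had their highest iPS signal on array 1-3, the array with the highest fibroblast marker mean. This count was not made over other genes. The gap from 1-3 to the next iPS array had a median of 0.51 and reached 1.59 for Col4a5. Feeder cells are fibroblasts, and their part in this gap was not tested. Without array 1-3, 17 collagen genes were called, all of them lower.

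The first 3 days of induction were then compared with MEFs. Falls were already widespread: 12 of 32 collagen genes were lower in Thy1+ cells (5.43% of all genes), 13 in Thy1- cells (6.55%) and 14 in SSEA1+ cells (8.8%). In Thy1+ cells 1 gene, Col15a1, was higher (5.27% of all genes), and no collagen gene was higher in Thy1- (5.72%) or SSEA1+ cells (7.33%). At an unadjusted p under 0.05 in limma, 1 was higher in Thy1- (Col15a1, by 0.85, under the 2-fold limit) and 0 in SSEA1+ cells. The median collagen difference was -0.23, -0.45 and -0.68 in these fractions, against 0.01, 0.03 and 0.05 over all genes. The 3 comparisons share the MEF arrays and are given side by side.

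Some genes had day 3 signals close to their iPS signals in each fraction. Col14a1 lay below 5.09, the dim limit, and Col5a3 close to it, where a further fall could not be seen. Col14a1, a collagen that sits on fibril surfaces, stood at 6.92 and 6.76 in MEFs and between 3.34 and 3.71 on all 6 arrays of day 3. Its log2 differences were -3.31 in Thy1+, -3.34 in Thy1- and -3.41 in SSEA1+ cells (SE 0.18 each), against -3.62 in iPS cells. Col5a3 likewise differed by -2.76, -2.85 and -3.04, and Col7a1 by -1.78, -1.77 and -2.03. Col18a1, whose C-terminal fragment is endostatin, also fell in each fraction but was not close to its iPS signal. It differed from MEFs by -2.13, -2.03 and -2.29 (SE 0.25 each). Its day 3 arrays lay between 6.31 and 6.66, below its iPS mean of 9.56.

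Other genes spread more between the fractions, with the largest differences from MEFs in SSEA1+ cells. The fractions of day 3 alone were not tested against each other. Col1a1 stood at 11.94 and 12.21 in Thy1+, 11.44 and 11.66 in Thy1- and 10.53 and 10.51 in SSEA1+ cells of day 3. The groups did not overlap, and the differences from MEFs were -1.12, -1.64 and -2.67 (SE 0.29 each). Col8a1 differed by -1.63, -2.06 and -2.94, Col16a1 by -1.69, -2.20 and -2.81, and Col5a1 by -1.37, -1.79 and -2.66. For Col6a3 the differences were -0.85, -1.48 and -2.18, of which the first was not called. In Thy1+ cells the calls of Col1a1 and Col5a2 were lost without either MEF array or the M2 array of that fraction, and that of Col5a2 also without its M3 array.

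No type IV gene was called on day 3. Col4a1 stood at 11.60 to 12.01 on the 6 arrays, near its MEF signals of 12.27 and 12.16, and its differences of -0.24, -0.44 and -0.57 (SE 0.18 each) were not called. Col4a2 (-0.40, -0.52 and -0.78) and Col4a5 (-0.22, -0.46 and -1.10) were not called in any fraction either. Col4a5 was called in SSEA1+ cells without the dimmest genes (adjusted p = 0.0467, limma) and with the mean of all probe sets (adjusted p = 0.0255, limma). It was also called with only the groups compared (adjusted p = 2.35e-05, limma) and without the day 6 Thy1+ M2 array (-1.10). In SSEA1+ cells Col4a1 (adjusted p = 0.0214, limma) and Col4a2 (adjusted p = 0.0344, limma) passed the adjusted p but not the 2-fold limit.

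**Figure D2:**
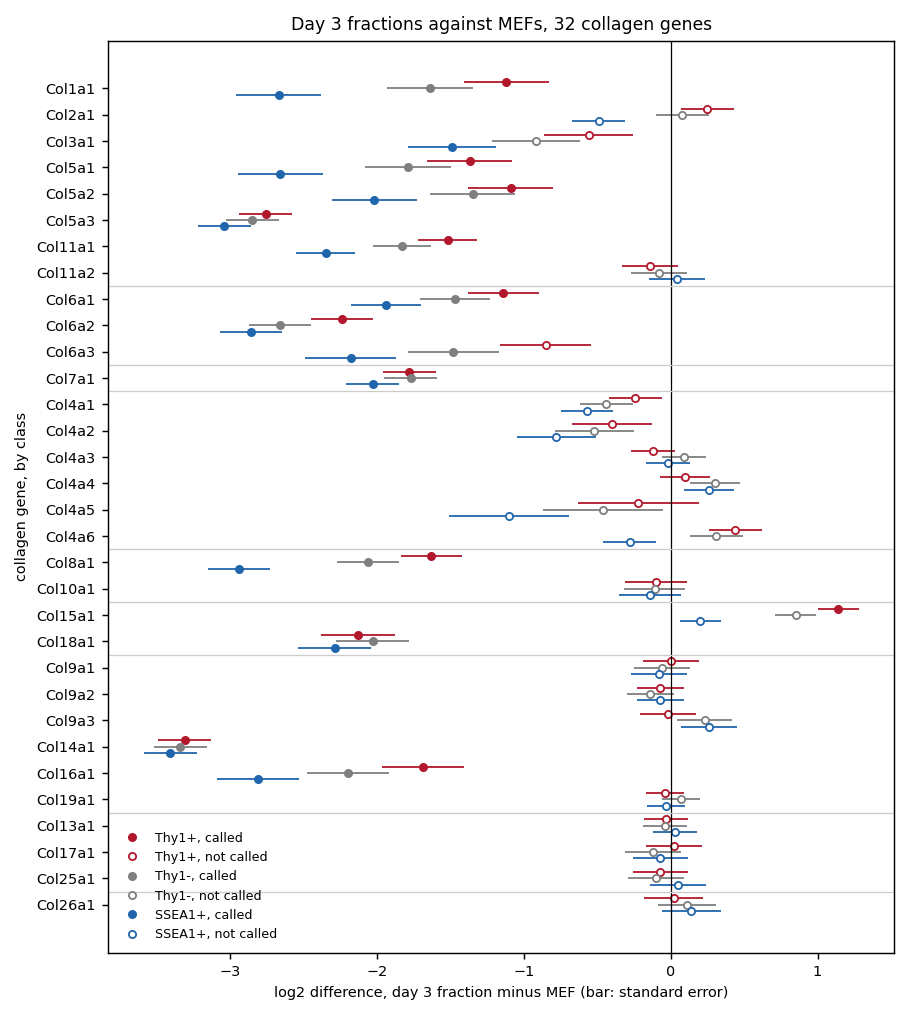
Log2 difference between each day 3 fraction and MEFs for 32 collagen genes, with the standard error as a bar; filled points were called by limma and open points were not. Col14a1 and Col5a3 lie near -3 in all fractions, Col1a1, Col5a1 and Col8a1 spread from Thy1+ to SSEA1+, Col4a1 and Col4a2 have open points between -0.78 and -0.24, Col4a5 reaches -1.10 in SSEA1+ cells with an open point, and Col15a1 lies to the right.

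The sorted fractions were compared with each other over all days, with the day as a term. This fit takes the same fraction difference on every day. Where the difference changed between days, the value is an average and the change is part of the spread behind the p-value. SSEA1+ cells were lower than Thy1+ cells in 12 of 32 collagen genes and higher in none, where 5.07% and 3.5% of all genes were called lower and higher. At an unadjusted p under 0.05 the counts were 16 lower and 0 higher. The collagen median was -0.33, against 0.02 over all genes. Fibroblast markers moved the same way, with 9 of 13 lower and a median of -1.70, and Thy1 itself was a gate. The part of remaining fibroblasts in these differences was not tested.

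The 12 genes came from the fibrillar (5 of 8), type VI (3 of 3) and several smaller classes. Col1a1 stood at 10.37 in SSEA1+ and 12.64 in Thy1+ cells on day 9, and at 9.46 and 12.58 on day 12. Over the days its difference was -1.93 (SE 0.18, adjusted p = 3.74e-06, limma). Col11a1 differed by -1.99 (SE 0.29), Col8a1 by -1.98 (SE 0.25), Col16a1 by -1.85 (SE 0.21) and Col6a3 by -1.83 (SE 0.16). Col5a1, Col5a2, Col6a1, Col3a1, Col6a2, Col4a5 and Col15a1 had differences between -1.79 and -1.32. Col4a1 (-0.52) and Col4a2 (-0.71) passed the adjusted p but not the 2-fold limit. The same 12 genes were called whichever single array was left out.

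Thy1- cells were compared with both. Against them SSEA1+ cells were lower in 1 collagen gene, Col1a1 (-1.08, SE 0.18, with 0.813% of all genes lower), and higher in none (0.0847%). At an unadjusted p under 0.05 in limma, 15 were lower and 1 higher. The call was lost without the day 12 SSEA1+ array (-0.87), and 2 to 4 genes were called without any one of the SSEA1+ arrays of days 3 and 6, the day 6 Thy1- M3 array or the day 9 Thy1- array. Thy1- cells were in turn lower than Thy1+ cells in 3 genes, where 0.754% of all genes were lower: Col8a1 (-1.27), Col16a1 (-1.17) and Col11a1 (-1.07). None was higher (1.15% of all genes), also at an unadjusted p under 0.05 in limma (0). Without the day 12 Thy1+ array only Col16a1 was called, Col16a1 was lost without the day 6 Thy1+ M2 array (-0.95), and Col11a1 was lost without the day 3 Thy1- M2 array, either day 6 Thy1- array or any array of these fractions from days 9 and 12. As a description of the 18 genes that were lower in iPS cells, mean signals were ordered SSEA1+ below Thy1- below Thy1+ for 17 genes on day 3, 16 on day 6, 14 on day 9 and 15 on day 12. Col7a1 was out of this order on each day. The order was not counted over other genes, so it is not shown to be particular to collagens.

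**Figure D3:**
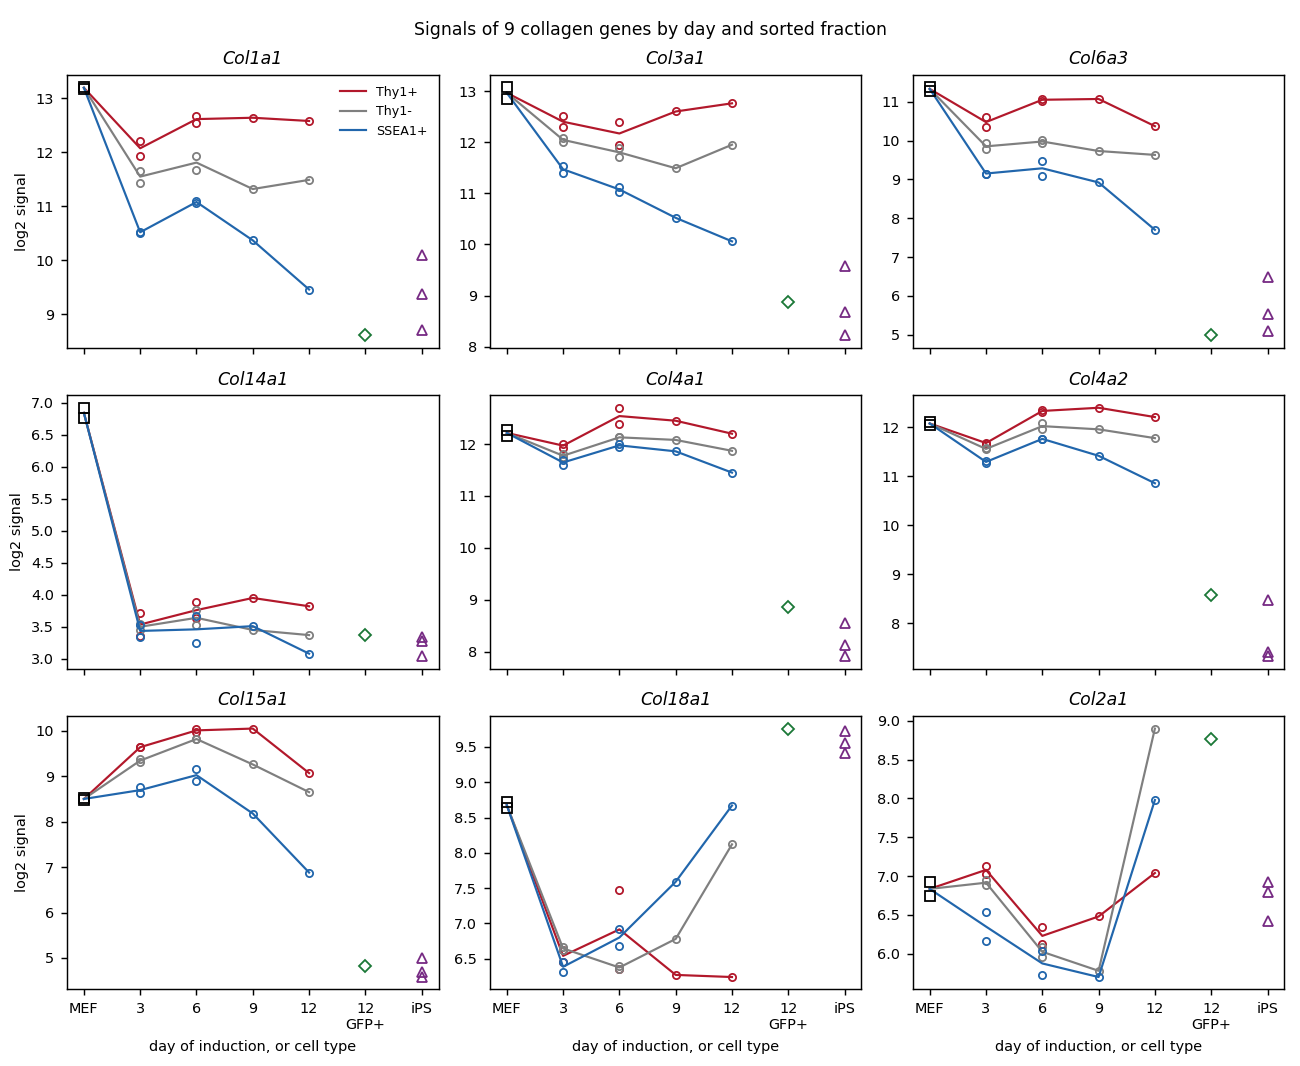
Log2 signal of 9 collagen genes by day of induction; open circles are single arrays, lines join the fraction means from the MEF mean (Thy1+ red, Thy1- gray, SSEA1+ blue), squares are MEF, the diamond GFP+ and triangles iPS arrays, and each panel has its own scale. Col1a1 and Col3a1 lie near their MEF signals in Thy1+ cells of days 9 and 12, Col4a1 and Col4a2 stay high until GFP+ cells, and Col18a1 and Col2a1 climb late outside the Thy1+ fraction.

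Within fractions, the next question was what changed after day 3. From day 3 to day 6 no collagen gene was called in SSEA1+ cells by limma, where 1.45% of all genes were called higher and 0.356% lower. At an unadjusted p under 0.05, 1 collagen gene was lower and 2 were higher. In Thy1+ cells none was lower (4.57% of all genes, with 3 collagen genes at an unadjusted p under 0.05 in limma) and 4 genes were called higher (4.56%): Col11a1 by 1.34 (SE 0.20), Col16a1 by 1.24, Col6a2 by 1.04 and Col8a1 by 1.04. Col11a1 stood at 9.25 and 9.35 on day 3 and at 10.65 and 10.62 on day 6. The day 6 Thy1+ M2 array, the one with the wide 3' to 5' gap, read 9.84 for Col16a1 against 8.62 on M3, and without it only Col11a1 was called. Col6a2 also lost its call without the day 3 Thy1+ M2 array, and Col8a1 without the M3 array of that group. The day 6 minus day 3 step did not differ by a call between SSEA1+ and Thy1+ cells for any collagen gene (0.491% of all genes lower and 1.37% higher in that test, with 2 collagen genes lower and 0 higher at an unadjusted p under 0.05 in limma). Without the day 6 Thy1+ M3 array 2 were called.

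Late Thy1+ cells were then set against MEFs. Over days 9 and 12 they were lower than MEFs in 5 collagen genes, where 4.56% of all genes were, and higher in 1, where 4.61% were. Col1a1 stood at 12.64 and 12.58, Col11a1 at 10.95 and 11.08 and Col5a2 at 12.39 and 12.59, all uncalled against MEFs. Col16a1 (-0.92, adjusted p = 0.0318, limma) and Col5a1 (-0.88, adjusted p = 0.0439, limma) missed only the 2-fold limit. With the mean of all probe sets Col5a1 was called lower (-1.45). The genes still lower were Col14a1 (-2.95, SE 0.18), Col5a3 (-2.90), Col18a1 (-2.42, SE 0.25), Col7a1 (-2.00) and Col6a2 (-1.25). The summed fibroblast marker signal was 124.0 to 125.0 in Thy1+ cells of day 3 and 132.7 and 131.9 on days 9 and 12.

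Late SSEA1+ cells were set against those of day 6. Over days 9 and 12 they were lower than day 6 SSEA1+ cells in 5 collagen genes (1.29% of all genes) and higher in 1 (1.1%). The median difference was -0.06 over the collagen genes and 0.06 over all genes. Col15a1 had the largest difference, -1.5 (SE 0.14, adjusted p = 3.3e-05, limma), followed by Col1a1 (-1.16), Col11a1 (-1.13), Col6a1 (-1.12) and Col6a2 (-1.12). Col6a1 stood at 10.18 and 10.40 on day 6, at 9.79 on day 9 and at 8.55 on day 12. Without the day 12 array 0 collagen genes were called, without the day 9 array 10 were, and without the day 6 M2 array 3 were. Col1a1 and Col6a1 lost their calls without either day 6 array, Col18a1 without the M2 and Col6a2 without the M3 array of that group.

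The change from day 3 to days 9 and 12 was then set against each other between SSEA1+ and Thy1+ cells, a comparison added after the data had been seen. The change differed in 8 collagen genes, 7 more negative (4.59% of all genes) and 1 more positive (3.87%) in SSEA1+ cells. Col11a1 fell by 0.79 from its day 3 mean in SSEA1+ cells and rose by 1.72 in Thy1+ cells, and the difference of these changes was -2.50 (SE 0.28, adjusted p = 4.85e-05, limma). Col6a1 (-1.83, SE 0.34), Col5a2 (-1.71), Col6a2 (-1.65), Col3a1 (-1.46), Col8a1 (-1.44) and Col15a1 (-1.09) were more negative as well. Col18a1 was the gene with the opposite sign, at 2.03 (SE 0.36). Without the day 12 SSEA1+ array 3 of the 8 were called, and Col3a1 lost its call without any array of the comparison except the day 9 SSEA1+ array. Col5a2 was also lost without the day 3 SSEA1+ M3 array, Col15a1 without the day 9 Thy1+ array and Col8a1 without the day 12 Thy1+ array.

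GFP+ cells of day 12 were compared with the SSEA1+ array of that day, with 1 array each, so that the spread of the replicated groups stood in for theirs. GFP+ cells were lower in 7 collagen genes (4.73% of all genes) and higher in none (2.46%). At an unadjusted p under 0.05 in limma, 11 were lower and 4 higher. Both chains of the common type IV trimer were among the 7. Col4a1 stood at 11.45 in SSEA1+ and 8.85 in GFP+ cells, a difference of -2.59 (SE 0.25, adjusted p = 1.43e-05, limma), and Col4a2 at 10.86 and 8.58, a difference of -2.29 (SE 0.38). Col6a3 was lower by -2.72, from 7.70 to 4.98, Col15a1 by -2.06, Col6a2 by -1.61, Col6a1 by -1.57 and Col11a1 by -1.53. The summed fibroblast marker signal was 100.2 and 89.6 on these arrays. Under 2 other settings Col18a1 was called higher and Col5a2 lower in GFP+ cells. The differences were 1.09 and -1.33 without the day 6 Thy1+ M2 array, and 1.14 and -1.13 with the mean of all probe sets.

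Against GFP+ cells, iPS cells were lower in 1 collagen gene (3.24% of all genes) and higher in 1 (3.99%). Both counts were near the share of all genes. Col2a1 was lower, at 6.79, 6.93 and 6.42 against 8.77, a difference of -2.05 (SE 0.21). Col5a1 was higher by 1.24 (SE 0.34), and its signal of 9.44 on array 1-3 was above the 8.57 and 8.17 of the other two. Without array 1-3 the Col5a1 difference was 0.88 and was not called, and without array 1-6 4 collagen genes were called.

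The path from MEFs to iPS cells was described for the 18 genes lower in iPS cells, as the percent of the log2 distance covered. On day 3 the SSEA1+ mean had covered 96.3% for Col8a1, 96.1% for Col7a1, 94.1% for Col14a1 and 89.6% for Col5a3. It had covered 14.2% for Col4a1, 18.1% for Col4a2, 24.8% for Col4a5 and -5.3% for Col15a1. The median over the 18 genes was 46.4% on day 3, 47.7% on day 6, 59.3% on day 9, 78.0% on day 12 and 102.6% in GFP+ cells. In Thy1+ cells it was 27.2% on day 3 and 13.7% on day 12. On day 12 Col4a1 was still at 19.1% and Col4a2 at 28.0% in SSEA1+ cells, and both passed 80% in GFP+ cells (83.7% and 80.7%). These percentages are values of single groups with no test, on genes that were selected for a difference between the end points.

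**Figure D4:**
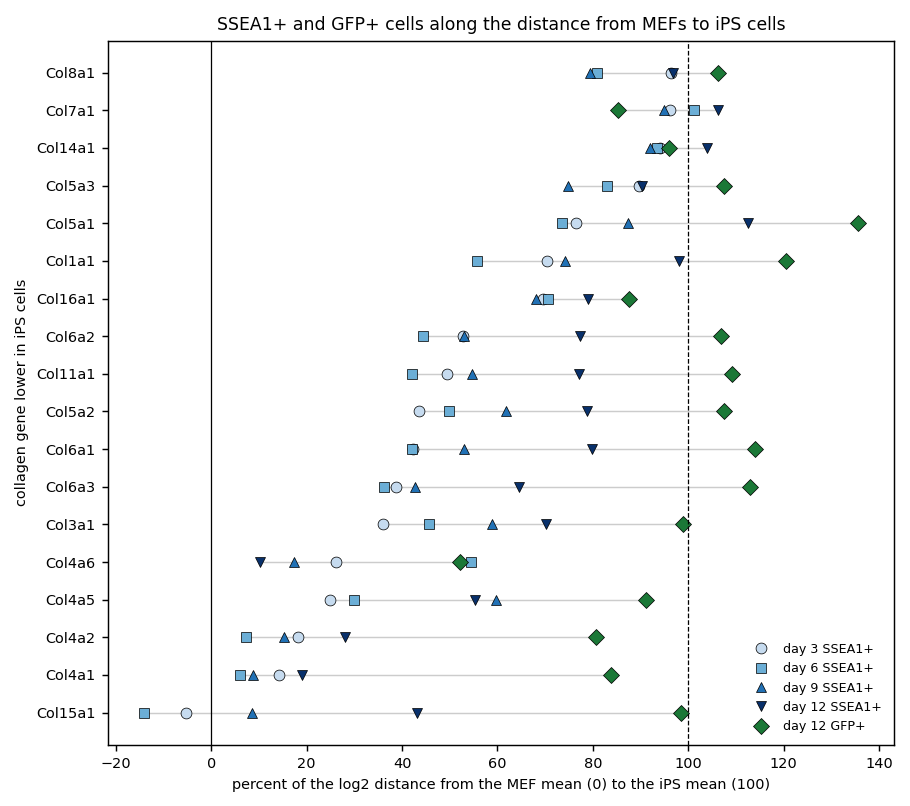
Percent of the log2 distance from the MEF mean (0) to the iPS mean (100) for the 18 collagen genes lower in iPS cells, in SSEA1+ cells of days 3 to 12 and in GFP+ cells; genes are ordered by the day 3 value. Col8a1, Col7a1, Col14a1 and Col5a3 start at 89.6% or more, while Col4a1, Col4a2 and Col15a1 start at 18.1% or less and end at 80.7% or more in GFP+ cells.

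The multiplexins Col15a1 and Col18a1 had different courses. Col15a1 stood at 8.48 and 8.52 in MEFs, rose to 9.64 on both Thy1+ arrays of day 3 (a difference of 1.14, SE 0.14, adjusted p = 3.32e-05, limma) and was at 8.63 and 8.76 in SSEA1+ cells. Thy1- means were 9.35 on day 3 and 9.82 on day 6. The day 3 Thy1- difference from MEFs, 0.85 (adjusted p = 0.000401, limma), missed only the 2-fold limit. Col15a1 was still higher than in MEFs in Thy1+ cells of days 9 and 12, by 1.07, a call lost without the day 9 array (0.58). In SSEA1+ cells it went from 8.90 and 9.15 on day 6 to 8.18 on day 9, 6.88 on day 12 and 4.82 in GFP+ cells. Col18a1 fell on day 3, and in SSEA1+ cells it then read 6.68 and 6.92 on day 6, 7.59 on day 9, 8.67 on day 12 and 9.76 in GFP+ cells. The step from day 6 to days 9 and 12 was 1.33 (SE 0.25, adjusted p = 0.00647, limma), and 0.79 and uncalled without the day 12 array. Thy1+ cells stayed at 6.27 and 6.24 on these days. Both Col18a1 probe sets followed each other (r = 0.98), and they do not separate transcripts of the starts shown above.

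Col2a1, the fibrillar chain of cartilage, rose on day 12 outside the Thy1+ fraction. In a comparison of day 12 with day 9 over SSEA1+ and Thy1- cells, also added after the data had been seen, 2 collagen genes were higher (1.02% of all genes) and 0 lower (0.102%). In limma 6 were lower when p was left unadjusted at 0.05. Col2a1 went from 5.70 to 7.98 in SSEA1+ and from 5.78 to 8.90 in Thy1- cells, a mean difference of 2.70 (SE 0.18, adjusted p = 1.3e-06, limma). Thy1+ cells read 6.48 and 7.04 on these days, and MEFs 6.92 and 6.75. Col18a1 was higher by 1.21 (SE 0.25), a call lost without the day 9 Thy1- (0.81) or the day 12 SSEA1+ array (0.93). Without the day 12 Thy1- array 7 collagen genes were called, and without the day 9 SSEA1+ array 4. None of 10 chondrocyte markers was called with it. Their summed signal was 54.0 on day 9 and 54.1 on day 12 in SSEA1+ cells, and 51.0 and 54.3 in Thy1- cells. Each group in this comparison had 1 array.

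Genes of collagen assembly were examined from lists. Of 15 folding and modification genes 11 were lower in iPS cells (median -1.89), where 15.3% of all genes were. The largest falls were those of Serpinh1, the collagen chaperone HSP47 (-3.71, SE 0.17), P3h3 (-3.66), Creb3l1 (-3.60) and P3h4 (-3.34). Creb3l1 is a membrane-bound transcription factor of the secretory pathway. On day 3 the number of these 15 genes lower was 4 in Thy1+ (5.43% of all genes), 6 in Thy1- (6.55%) and 8 in SSEA1+ cells (8.8%). Creb3l1 was the largest of these, at -3.20, -3.62 and -4.14 (SE 0.14 each). Serpinh1, named here after its values were seen, had day 3 differences of -0.36, -0.48 and -0.67 (SE 0.18 each) and was not called. It was lower in iPS than in GFP+ cells by -1.44 (SE 0.21).

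Of 12 processing and crosslinking genes 8 were lower and 2 higher in iPS cells, where 15.3% and 15.4% of all genes were. The count of higher genes was near the share of all genes. The lysyl oxidase family, which crosslinks collagen, led the falls, with Loxl1 at -4.41, Lox at -3.61, Loxl2 at -3.51 and Loxl3 at -3.02. The 2 higher genes, named after their values were seen, were Pcolce2 (1.73), an enhancer of procollagen cleavage, and the protease gene Mep1b (1.69). Pcolce2 was higher by 3.60, 3.71 and 3.64 in the 3 fractions of day 3 (SE 0.26 each), while Loxl1 was lower by -1.84, -2.28 and -3.48. Of 6 collagen receptors 3 were lower in iPS cells, where 15.3% of all genes were. They were the uptake receptor Mrc2 (-4.36), the receptor kinase Ddr2 (-4.09) and the integrin chain Itgb1 (-1.51).

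Partners of type IV collagen in the basement membrane included genes called in each direction. Of 12 measured genes 6 were lower in iPS cells, where 15.3% of all genes were. In the other direction 2 were higher, near the share of all genes (15.4%). The median difference was -0.80. The laminin chains Lama2 (-3.03) and Lamb2 (-2.20) were lower, and Lama3 (2.54) and Lama1 (2.19) were higher. Lama1 was already higher by 3.35, 3.40 and 3.52 in the fractions of day 3 (SE 0.15 each).

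The remaining members gave low or level signals. Col10a1, Col11a2, Col13a1, Col17a1, Col19a1, Col26a1, Col4a3, Col4a4 and Col9a1 had mean signals below 5.09 and spanned 0.43 (Col4a3) to 1.24 (Col26a1) over the 24 arrays. None of them was called in any of the 16 comparisons on these arrays. Col14a1 was the 10th dim gene, through its low signal outside MEFs. Col25a1 (5.26 to 6.08) and Col9a2 (4.89 to 5.92) were also never called. Dim probe sets compress differences, so these values do not show that the genes were silent or steady.

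On the second array set, day 6 SSEA1+ cells with and without the epithelial protein EpCAM were compared. EpCAM+ cells were lower in 2 of 36 collagen genes, where 0.266% of all genes were lower, and higher in none (0.484%). At an unadjusted p under 0.05 in limma, 8 were lower and 2 higher. Col3a1 stood at 7.48 and 7.48 in EpCAM- and at 6.19 and 6.04 in EpCAM+ cells, a difference of -1.36 (SE 0.09, adjusted p = 0.00393, limma). Its second probe set was dim on this design (mean 3.82). With the mean of all probe sets the Col3a1 difference was -0.79, under the 2-fold limit. Col1a2, the second chain of type I collagen and measured on this design only, stood at 10.59 and 10.31 against 9.53 and 9.16, a difference of -1.11 (SE 0.16, adjusted p = 0.0256, limma). Neither call held with any 1 of the 4 arrays left out. Some measures of RNA quality separated the groups too. The 18S probe signal was 12.32 and 11.22 in EpCAM- and 10.74 and 10.49 in EpCAM+ cells. The gap between 3' and 5' Gapdh probes was 0.624 and 0.309 against 0.726 and 0.772. For Actb the gap overlapped, at 0.707 and 0.486 against 0.693 and 0.776. The part of these measures in the result was not tested. Col6a3 (-0.97) and Col11a1 (-0.86) passed the adjusted p but not the 2-fold limit.

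Col4a1 stood at 11.71 and 11.44 in EpCAM- and at 11.48 and 11.22 in EpCAM+ cells, which overlapped. Col18a1 read 6.73 and 6.48 against 7.48 and 6.95, a difference of 0.61 (SE 0.19, adjusted p = 0.159, limma). Col17a1, the transmembrane collagen of hemidesmosomes, read 4.65 and 4.28 against 6.36 and 5.34. Its difference of 1.38 (SE 0.32, adjusted p = 0.0903, limma) was not called, although the groups did not overlap. With each array centred on its median it was called (1.39, adjusted p = 0.0437, limma), which makes 1 collagen gene higher. The same gene was called with the replicate number as a term (1.38, adjusted p = 0.0318, limma). None of 6 basal keratinocyte markers was called. None of 14 fibroblast markers was called either, and their summed signal was 91.6 to 92.6 in EpCAM- and 91.3 to 91.8 in EpCAM+ cells. Col1a1 was dim on this design, between 4.13 and 4.41 on all 4 arrays, and the reason was not tested. Of the other genes measured on this design only, Col12a1, Col20a1 and Col22a1 were not called.

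**Figure D5:**
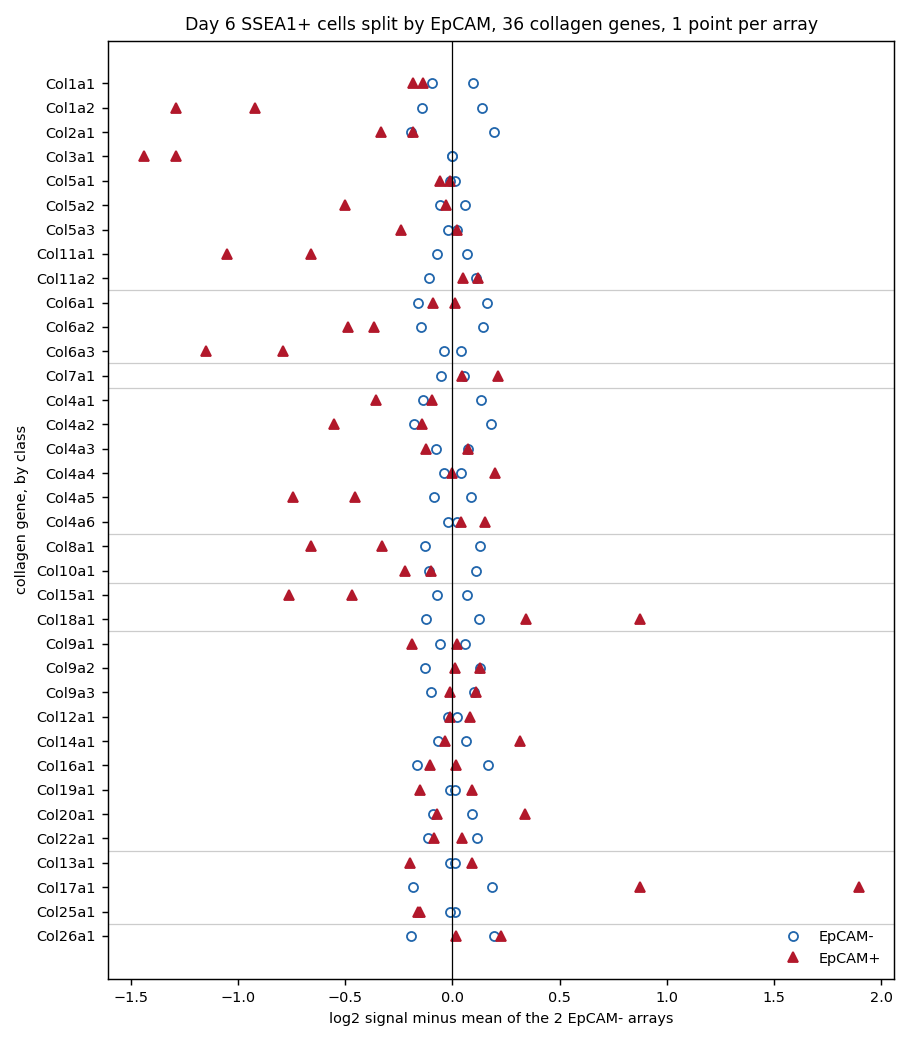
Log2 signal of 36 collagen genes in day 6 SSEA1+ cells minus the mean of the 2 EpCAM- arrays, with open circles for EpCAM- and triangles for EpCAM+ arrays. Col1a2 and Col3a1 lie to the left in both EpCAM+ arrays, Col17a1 and Col18a1 lie to the right, and most genes stay near 0.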

How the data were processed

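Gene expression was measured on 28 arrays of 2 designs. Deposited values are log2 probe set signals. The submitters' processing notes name RMA as the authors' method, without a version. Which arrays were normalized together is not given in the sources used here, and RMA's shared scaling can shift all values of an array. Array medians lay between 6.835 and 6.988 on the 24 arrays and between 6.553 and 6.58 on the 4.

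Probe sets with 1 symbol were kept, and the brightest on average was used for each gene. The 32 collagen genes had 48 such probe sets, 15 genes having several. On the 24 arrays other probe sets followed the one used with r of 0.90 or more, except for Col5a3 (0.13), Col9a1 (0.17), Col19a1 (0.51) and Col9a3 (0.79). On the 4 arrays r ran from -0.82 (Col8a1) to 1.0 (Col18a1), so a level gene there may depend on the probe set used. For Col5a1 that probe set spanned 0.07, while the one used on the 24 arrays spanned 1.11 on the 4. Symbols come from the array annotation.

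Groups came from the labels. Tests used limma 3.58.1 (R 4.3.3), in 1 fit of 15 group means (9 residual degrees of freedom), over the sorted fractions with day terms (12) or on the 4 EpCAM arrays (2). Single-array groups borrowed the spread of replicated ones. The number of arrays limits the precision. Any collagen gene could be named, and of other genes only list members, at most 4 per list and comparison, those of largest difference among the called. The members and lists were chosen with earlier results of these data known, and 2 comparisons were added after seeing the data.

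Alternatives were no minimum fold, no genes among the dimmest 25%, quantile or median scaling, mean probe sets, a trended robust prior, a replicate block, only the groups compared, no day 6 Thy1+ M2 array, and each array left out. On simulated data a log2 change of 1.5 was recovered in 93.5% of 200 changed genes (iPS against MEF) and 80.5% (the late change between fractions). The share was 74% for the day 6 minus day 3 step between SSEA1+ and Thy1+ cells, 73% for GFP+ against SSEA1+ and 85.5% for EpCAM. Simulated noise was normal and independent, and all other genes were left unchanged, unlike the data. Figures used Python 3.11.15, pandas 2.3.3, numpy 2.4.6 and matplotlib 3.10.9.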

Additional observations from a re-analysis of the deposited data

Results flagged for a closer look

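The change from day 3 to days 9 and 12 differed between SSEA1+ and Thy1+ cells for 8 collagen genes, by a limma test of the difference itself that was added after seeing the data. Col11a1 changed by -0.79 in SSEA1+ and 1.72 in Thy1+ cells (difference -2.50), Col6a1 by -1.12 and 0.71 (-1.83), and Col5a2 by -1.24 and 0.47 (-1.71). Col6a2 changed by -0.66 and 0.99 (-1.65), Col3a1 by -1.18 and 0.28 (-1.46), Col8a1 by 0.25 and 1.70 (-1.44) and Col15a1 by -1.17 and -0.07 (-1.09). Col18a1 changed by 1.74 and -0.28 (2.03). Late values are means of the 2 single arrays of days 9 and 12. No group had 4 or more arrays, so no single array could be tested as an outlier.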

How the results depend on the processing

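Across 17 comparisons, collagen counts stayed within 1.5 times the reported count in 139 of 149 settings that left out no array, and no called gene changed sign. With no minimum fold the counts were 9 for SSEA1+ against Thy1-, 9 for Thy1- against Thy1+, 8 for day 6 against day 3 in Thy1+ cells, 4 for iPS against GFP+ and 4 for EpCAM. With the mean of all probe sets they were 2 for SSEA1+ against Thy1- and 1 for EpCAM. Only the groups compared gave 1 for day 6 against day 3 in Thy1+ cells and 1 for iPS against GFP+; without the day 6 Thy1+ M2 array the former was also 1. The cause was not tested, except that the fold limit alone sets the first group.

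Leaving out 1 array in turn gave 17 to 19 genes for iPS against MEF, 11 to 12 for day 3 Thy1+, 13 for Thy1- and 14 for SSEA1+ against MEF, 12 for SSEA1+ against Thy1+, 0 to 4 for SSEA1+ against Thy1- and 1 to 4 for Thy1- against Thy1+. It gave 0 for day 6 against day 3 in SSEA1+ cells, 1 to 4 in Thy1+ cells and 0 to 2 for their difference. It gave 6 for late Thy1+ against MEF, 0 to 10 for late SSEA1+ against day 6, 2 to 4 for iPS against GFP+, 3 to 12 for the late change between fractions, 1 to 7 for day 12 against day 9 and 0 for EpCAM. Lone GFP+ and SSEA1+ arrays could not be left out of their own comparison. With only its own arrays, day 12 against day 9 could not be fitted.

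The replicate block (M2 and M3 as a term) left every count within 1.5 times, with 19 genes for iPS against MEF. It added Col17a1 to the EpCAM calls (1.38, adjusted p = 0.0318, limma; 3 genes), Col16a1 to late Thy1+ against MEF (-1.02; 7 genes) and Col2a1 to late against day 6 SSEA1+ cells (1.04). It ended 1 call, Col1a1 in late against day 6 SSEA1+ cells (-1.15, adjusted p = 0.0576, limma). Deviations of same-named arrays correlated between -0.21 and 0.21 over 21 pairs of groups (median -0.01), so the names are not treated as pairs. The dim probe sets of 10 members limit what could be seen for them.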

Other observations

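Of 10 chondrocyte markers 2 were higher and 1 was lower in iPS cells than in MEFs by limma, near the shares of all genes (15.4% higher, 15.3% lower). These genes were named after their values were seen. Acan, the cartilage proteoglycan, stood at 6.26, 7.13 and 6.66 in iPS cells (1-3, 1-5, 1-6) and at 4.30 and 4.19 in MEFs. Matn3, a cartilage matrix protein, stood at 6.39, 6.80 and 6.32 against 4.11 and 4.37, a log2 difference of 2.27 (SE 0.21). Sox9, the chondrocyte regulator, stood at 6.40, 5.46 and 5.46 against 9.36 and 9.28 (-3.54, SE 0.44). Col26a1, dim throughout, read 5.15 in GFP+ and 5.12 in Thy1- cells of day 12, against 3.91 and 4.28 in MEFs.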
